A study of Rattus norvegicus with 12 samples.

Results

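The desmosome and intercalated disc genes Dsp, Pkp2, Jup, Dsg2, Dsc2, Cdh2, Ctnna1, Ctnna3, Gja1 and Tjp1 were measured in the free walls of both ventricles of neonatal rats. They were selected by gene name, with earlier results of these data known, and the 10 names matched 11 of the 32545 rows, because Ctnna3 is listed on 2 rows. All 11 rows passed the filter of a mean of at least 0.5 FPKM and were among the 13910 rows tested. All animals were Sprague–Dawley (SD) rats with no transgene or deletion named. At postnatal day 1 (P1) they underwent either a sham operation or surgery that created a fistula between the abdominal aorta and the inferior vena cava (AVF), which imposes volume overload (VO) on both ventricles. The myocardium of the LV and RV free walls was collected at P7, and 3 libraries were sequenced per group, which gave a sham and a VO group for either ventricle (12 libraries). The labels do not say whether the 3 libraries of a group come from separate rats, or whether the LV and RV of 1 number come from the same rat, so p-values measure the spread between these libraries. The values are FPKM, reads scaled to gene length and to the depth of the library, so levels may be compared between genes, and the free wall is a mixed tissue in which fewer cells of a type and less RNA per cell cannot be told apart.

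The intercalated disc joins cardiomyocytes end to end. In the desmosome, the cadherins desmoglein-2 (Dsg2) and desmocollin-2 (Dsc2) span the gap between cells, plakoglobin (Jup) and plakophilin-2 (Pkp2) bind their tails, and desmoplakin (Dsp) links the plaque to desmin filaments. In the adherens junction, N-cadherin (Cdh2) is tied to actin through catenins, among them αE-catenin (Ctnna1) and the heart- and testis-enriched αT-catenin (Ctnna3). Connexin 43 (Gja1) forms the gap junctions that carry current between ventricular myocytes, and ZO-1 (Tjp1) is a scaffold that binds connexin 43. Pathogenic variants of the human desmosomal genes are a known cause of arrhythmogenic cardiomyopathy, and in rodents the junctions gather at the cell ends during the first weeks after birth.

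To show the sequence next to which these transcripts start, the 250 bases upstream of the start site are given for 3 genes whose responses to VO differed between the ventricles: Dsp, the plaque gene with the most reads, Dsg2, a desmosomal cadherin, and Gja1, the gap junction gene. The sequences are from RefSeq (build GRCr8), in which 7 of the 10 genes were matched, and capitals mark the motifs found. Both strands were searched for 6 short motifs, and no 2 matches overlapped in these 3 sequences.
Dsp (chr17:26877122-26877371, minus strand): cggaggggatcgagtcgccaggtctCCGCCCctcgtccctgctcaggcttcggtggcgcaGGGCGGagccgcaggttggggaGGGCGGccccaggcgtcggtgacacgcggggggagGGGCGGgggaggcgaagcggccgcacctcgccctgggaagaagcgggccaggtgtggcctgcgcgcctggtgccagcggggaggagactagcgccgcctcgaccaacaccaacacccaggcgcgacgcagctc
Dsg2 (chr18:12121037-12121286, plus strand): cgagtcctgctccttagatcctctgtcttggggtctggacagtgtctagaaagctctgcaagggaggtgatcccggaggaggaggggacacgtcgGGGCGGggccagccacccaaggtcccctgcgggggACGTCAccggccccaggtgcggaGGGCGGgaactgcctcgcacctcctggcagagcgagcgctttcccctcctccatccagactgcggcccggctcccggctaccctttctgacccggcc
Gja1 (chr20:36302314-36302563, plus strand): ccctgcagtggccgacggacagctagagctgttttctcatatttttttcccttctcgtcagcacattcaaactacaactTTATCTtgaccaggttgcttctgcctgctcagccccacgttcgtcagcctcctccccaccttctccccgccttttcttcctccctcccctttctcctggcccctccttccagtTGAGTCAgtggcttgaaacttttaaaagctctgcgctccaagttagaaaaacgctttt
The Dsp sequence was 75.2% GC and held 4 GC boxes. The Dsg2 sequence was 68.4% GC and held 2 GC boxes and 1 CRE half-site. The Gja1 sequence was 51.2% GC and held no GC box, 1 GATA motif and 1 AP-1 motif. Among 33469 promoter windows of the same length the median GC content was 51.2%. The GC box was searched as GGGCGG, which 30.5% of those windows held. The GATA motif was searched as AGATAA, found in 10.3% of windows. The AP-1 motif was searched as TGANTCA, found in 6.34%. The CRE half-site was searched as TGACGT, found in 6.95%. The TATA box (TATAAA) was found in 12.9% of windows. The TEAD motif (CATTCC) was found in 12.1%, and neither of these last motifs was matched in the 3 windows shown. Of the other genes matched, Jup (68.8% GC) held 1 GC box and Dsc2 (64.4%) held 2, and no motif searched was found for Ctnna3 (47.2%) or Tjp1 (30.4%). A match is a description of letters, and these windows were not tested for a role in the differences below.

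Averaged over the 12 libraries, Ctnna1 and Gja1 were the most abundant of these transcripts, at 186 and 165 FPKM, above 97.3% and 97.0% of the tested genes. Cdh2 (84.9 FPKM), Jup (77.3 FPKM) and Dsp (69.8 FPKM) followed, with Pkp2 at 38.5 FPKM, Tjp1 at 30.1 FPKM and Dsg2 at 14.6 FPKM. Dsc2 (3.18 FPKM) and the Ctnna3 rows (3.20 and 2.30 FPKM) were the lowest. The reads behind a value ran from 27, for the lower Ctnna3 row in sham LV replicate 2 and VO RV replicate 3, to 16196, for Dsp in VO LV replicate 3, which alone leave counting errors of 19.2% and 0.786%. Of the plakins, plakophilins and desmosomal cadherins, those of stratified epithelia were lower than the heart forms. Periplakin (Ppl) averaged 0.695 FPKM, Pkp3 0.277, envoplakin (Evpl) 0.158 and Pkp1 0.145 FPKM. Dsg1, Dsg3, Dsg4, Dsc1 and Dsc3 were each under 0.1 FPKM in every library. Perp, another desmosomal gene, had group means of 76.2 to 95.8 FPKM.

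Summed over the 11 rows, these transcripts reached 550.4 ± 65.8 FPKM in the sham LV and 777 ± 66.5 FPKM in the overloaded LV (SD, n = 3). In the RV they reached 762 ± 61.9 FPKM in the sham and 611 ± 80.6 FPKM in the VO libraries. Among the sham libraries, the LV mean was below the RV mean in all 11 rows. With VO, all 11 had a higher mean in the LV and a lower mean in the RV, and all 11 had a higher mean in VO LV than in VO RV, by little for Dsc2 (3.08 against 2.99 FPKM), whose sign changed under 3 alternatives. Sham LV had the lowest mean of the 4 groups in 8 rows and VO RV in 3 (Pkp2, Jup and Tjp1). Sham RV had the highest mean in 6 rows and VO LV in 5. The comparison of sham LV with sham RV and the LV response share the sham LV libraries, and the sham comparison and the RV response share the sham RV libraries, so that part of this pattern is carried by the same values. The LV response and the RV response share no library.

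**Figure D1:**
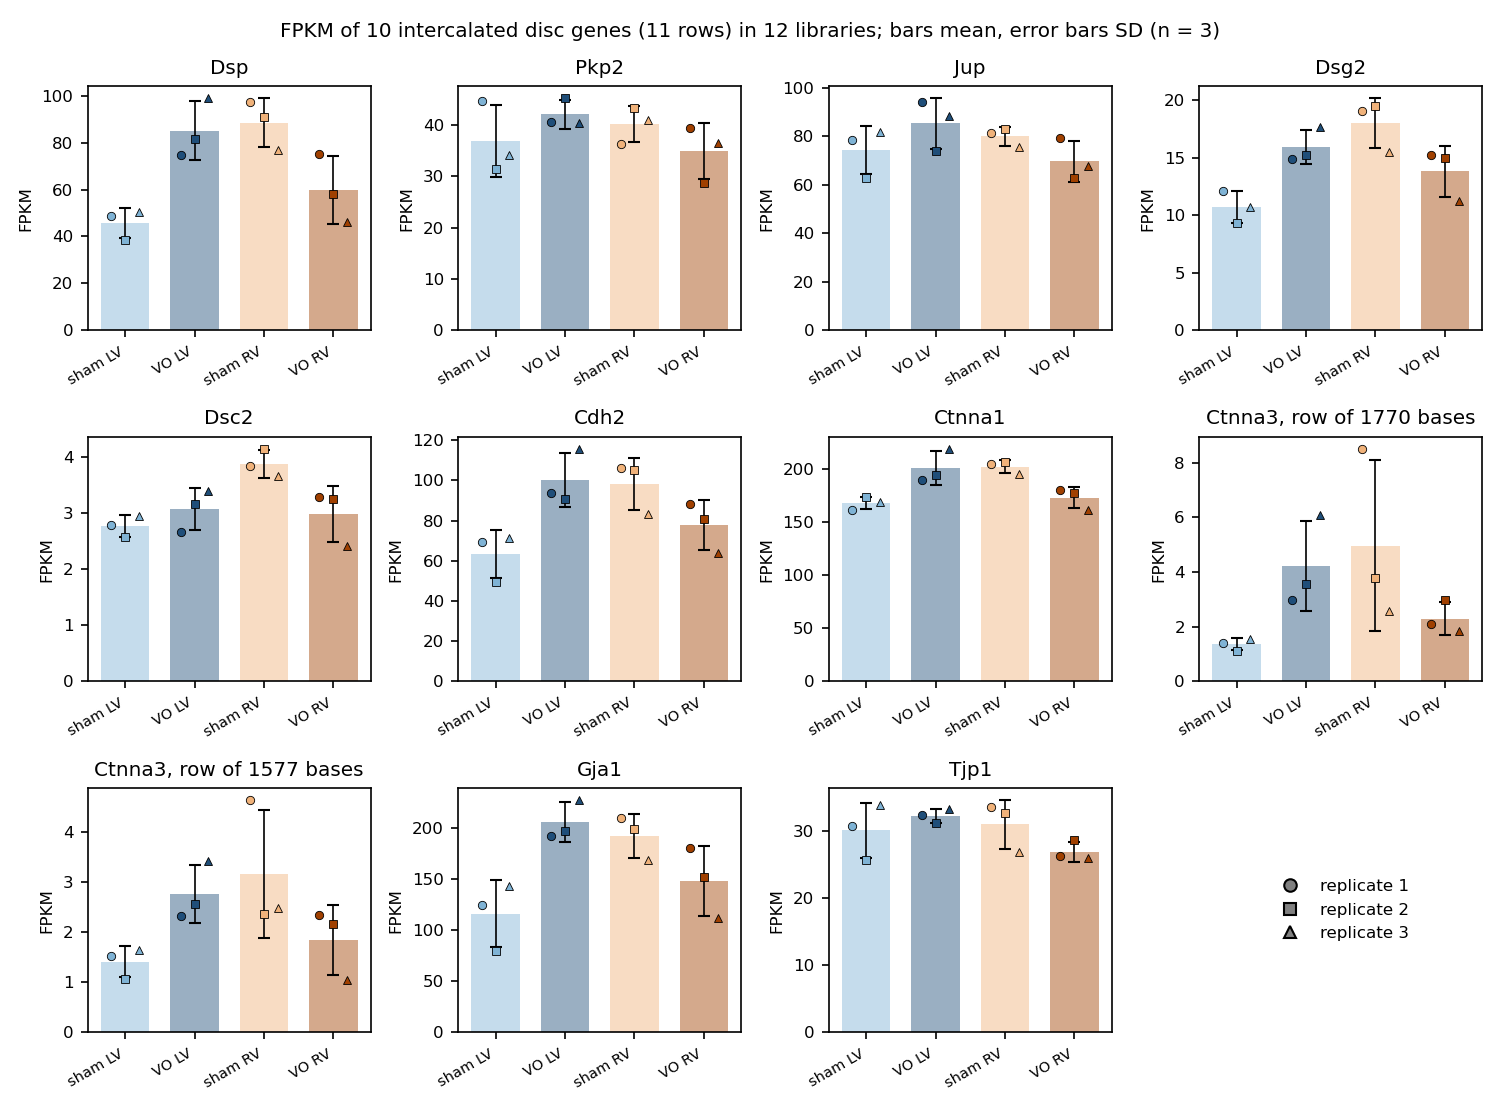
FPKM (linear axis from 0) of the 11 rows in each group, with circles, squares and triangles for replicates 1, 2 and 3, bars for the mean and error bars for the SD (n = 3). For Dsp the 3 sham LV libraries (38.4 to 50.2 FPKM) sit below all VO LV libraries (74.8 to 99.2 FPKM) and all sham RV libraries (76.9 to 97.3 FPKM), while the groups overlap for Pkp2, Jup and Tjp1 in both responses.

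Whether the 2 ventricles differed before overload was read from sham LV against sham RV. Dsp, Dsg2 and 1 row of Ctnna3 were significantly lower in the LV, at an adjusted p under 0.05 from limma and a fold change over 1.3, and no row was significantly higher. These are 3 of 11 rows, beside 2.35% of all tested genes called lower. At an unadjusted p under 0.05 with the same fold change, 7 rows were lower, beside 9.63% of all genes, and for 8 rows every sham LV library lay below every sham RV library, beside 16.6% of all genes. The median log2 difference was −0.64 over the 11 rows and 0.01 over all genes tested. The calls depended on single libraries: the number called was 0 without sham LV replicate 1 or 2, sham RV replicate 1 or 2, or VO LV replicate 2, and 6 when VO RV replicate 3 was left out, which enters through the shared estimate of the spread. The count over all tested genes moved alike, from 536 with every library to 0 to 5 in the fits where no row was called and to 872 without VO RV replicate 3. With all genes above 0 tested, 0 rows were called, beside 8 of all genes.

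For the LV response, VO LV against sham LV, no row was called, beside 13 of all tested genes (0.0935%). At the unadjusted p, 6 rows were higher, beside 9.27% of all genes, and by voom on the recovered reads 2 rows were called, beside 2.44% of all genes. For 7 rows every VO LV library lay above every sham LV library, beside 16.7% of all genes. The median log2 difference was 0.56 over the 11 rows and −0.02 over all genes. The number called reached 4 without VO RV replicate 3, 2 without sham LV replicate 3 and 1 without VO RV replicate 1, where 554, 295 and 174 of all tested genes were called.

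For the RV response, VO RV against sham RV, no row and none of the tested genes was called (0.0%) by limma, and voom called none either. At the unadjusted p, 683 genes passed in either direction, and 3 of the 11 rows were lower, beside 3.06% of all genes. For 5 rows every VO RV library lay below every sham RV library, beside 6.87% of all genes. The median log2 difference was −0.34 over the 11 rows and 0.00 over all genes. Between the overloaded ventricles, VO LV against VO RV, no row was called by limma or voom, beside 1 of all genes (0.00719%). There, 2 rows were higher at the unadjusted p, beside 3.85% of all genes, the groups did not overlap for 6 rows, beside 8.45%, and the median log2 difference was 0.29, against 0.01 over all genes.

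The difference of the responses, the LV response minus the RV response, was tested directly. Dsp, Dsg2, Cdh2, Ctnna1, Gja1 and 1 row of Ctnna3 were called, all of them with the higher response in the LV, which is 6 of 11 rows beside 3.46% of all tested genes. At the unadjusted p, 9 rows passed, beside 13.1% of all genes, and the median was 0.93 on the log2 scale, against −0.04 over all genes. In 4 rows (Dsp, Dsg2, Ctnna1 and the shorter Ctnna3 row) every VO LV library lay above every sham LV library and every VO RV library below every sham RV library, as it did in 3.37% of all genes. The number called was 0 without sham LV replicate 1 or 2, sham RV replicate 1 or 2, or VO LV replicate 2 or 3, it was 1 when either VO LV replicate 1 or VO RV replicate 3 was left out, and 7 when VO RV replicate 1 was. Over all tested genes, 583 were called with every library, 0 to 4 in the fits where no row was called, 239 and 110 in the fits with 1 row and 1004 in the fit with 7. With all genes above 0 tested, 0 rows were called, beside 21 of all genes, and with the gene-length trend removed 3 rows were, beside 393. In each of the fits with a library left out all 11 rows kept a higher response in the LV.

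**Figure D2:**
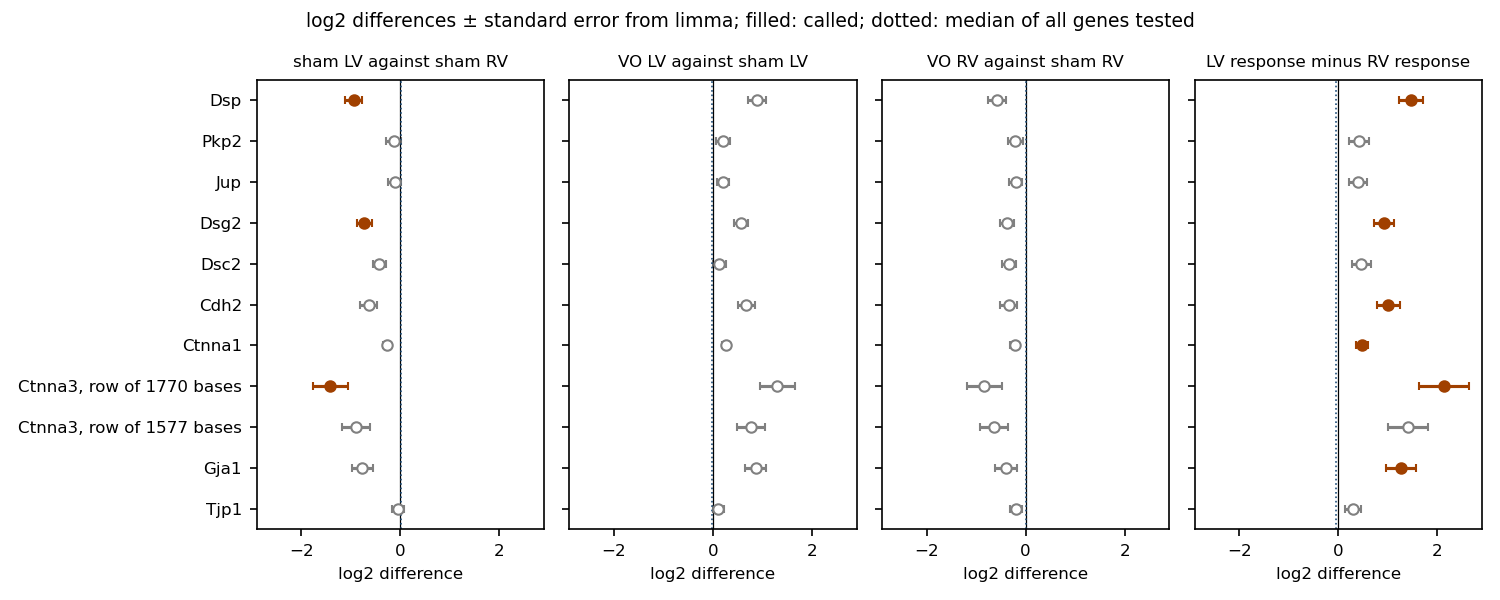
log2 differences with standard errors from limma for the 11 rows in 4 comparisons, where filled points were called (adjusted p under 0.05 and fold change over 1.3) and the dotted line is the median of all genes tested. All points lie below 0 for sham LV against sham RV and for the RV response, and above 0 for the LV response and for the difference of the responses, in which 6 points are filled.

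Desmoplakin carried the clearest pattern of the desmosomal plaque. Dsp (ENSRNOG00000013928, chr17:27286796-27334379, minus strand) was 48.8, 38.4 and 50.2 FPKM in replicates 1 to 3 of sham LV and stood at 74.8, 81.4 and 99.2 FPKM with VO. In the RV it was 97.3, 91.1 and 76.9 FPKM in the sham libraries and 75.0, 58.3 and 46.4 FPKM in the VO libraries. The sham LV libraries were below all others except VO RV replicate 3, and the VO LV and sham RV libraries overlapped. The mean was 45.8 ± 6.42 FPKM in the sham LV against 85.2 ± 12.6 FPKM with VO, and 88.4 ± 10.5 FPKM in the sham RV against 59.9 ± 14.4 FPKM with VO (SD, n = 3). Between the shams, Dsp was significantly lower in the LV (log2 difference −0.94, standard error 0.18, limma adjusted p = 0.0325). The LV response did not pass (log2 difference 0.89, standard error 0.18, limma adjusted p = 0.0519), nor did the RV response (log2 difference −0.58, standard error 0.18, limma adjusted p = 0.542) or VO LV against VO RV (0.52, limma adjusted p = 0.333). Its responses differed significantly between the ventricles (log2 difference 1.47, standard error 0.25, limma adjusted p = 0.0249).

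Pkp2 and Jup, the plaque proteins that bind the cadherin tails, were not called in any of the 5 comparisons. Pkp2 (ENSRNOG00000001825, chr11:88912599-88972176, minus strand) measured 44.7, 31.5 and 34.1 FPKM in the sham-operated LV (replicates 1 to 3), against 40.6, 45.3 and 40.3 FPKM in the overloaded LV. For the RV the values were 36.3, 43.2 and 40.9 FPKM without and 39.5, 28.8 and 36.4 FPKM with VO. The groups overlapped except that the VO LV libraries lay above the VO RV libraries (log2 difference 0.28, standard error 0.14, limma adjusted p = 0.497). Its log2 differences were −0.14 between the sham ventricles, 0.21 for the LV response and −0.21 for the RV response, and the difference of the responses was 0.41 (limma adjusted p = 0.228). Jup (ENSRNOG00000015380, chr10:88279632-88307412, minus strand) gave 78.4, 62.8 and 81.6 FPKM in the 3 sham LV libraries and 94.2, 73.8 and 88.2 FPKM in the 3 VO LV libraries. Sham RV gave 81.4, 82.9 and 75.5 FPKM, and VO RV 79.0, 62.6 and 67.5 FPKM. Jup overlapped between the groups in all 4 comparisons of groups. Its log2 differences were −0.11 between the sham ventricles, 0.20 for the LV response, −0.20 for the RV response and 0.29 between the overloaded ventricles, and the difference of the responses was 0.40 (limma adjusted p = 0.187). Without sham LV replicate 2, the library lowest in Jup among the shams, the sham difference was 0.000636 on the log2 scale.

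Of the desmosomal cadherins, Dsg2 was called where Dsp was, and Dsc2 was not called. Dsg2 (ENSRNOG00000016526, chr18:15579315-15637715, minus strand) stood at 12.1, 9.32 and 10.7 FPKM in sham LV replicates 1 to 3 and at 14.9, 15.2 and 17.7 FPKM in the overloaded LV. The RV had 19.1, 19.5 and 15.5 FPKM after the sham operation and 15.3, 14.9 and 11.2 FPKM after VO. Sham LV overlapped neither sham RV nor VO LV, being lower than both, and the VO RV libraries lay below the sham RV libraries, narrowly so for VO RV replicate 1 and sham RV replicate 3. Mean levels were 10.7 ± 1.39 (sham) and 15.9 ± 1.51 FPKM (VO) for the LV, and 18.0 ± 2.20 (sham) and 13.8 ± 2.23 FPKM (VO) for the RV (SD, n = 3). Between the shams, Dsg2 was significantly lower in the LV (log2 difference −0.72, standard error 0.14, limma adjusted p = 0.0343). The LV response (log2 difference 0.56, standard error 0.14, limma adjusted p = 0.0703) and the RV response (−0.37, limma adjusted p = 0.56) did not pass, and the difference of the responses did (log2 difference 0.93, standard error 0.20, limma adjusted p = 0.0358). The minus strand and position given for Dsg2 are those of the deposited table, whose build is not named, and differ from the RefSeq entry above.

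Dsc2 (ENSRNOG00000039969, chr18:11826706-11858754, minus strand) was 2.79, 2.57 and 2.96 FPKM in replicates 1 to 3 of sham LV and stood at 2.67, 3.16 and 3.40 FPKM with VO. In the RV it was 3.85, 4.15 and 3.66 FPKM in the sham libraries and 3.30, 3.25 and 2.41 FPKM in the VO libraries. Its sham RV libraries were above those of all other groups, and the other 3 groups overlapped. The mean was 2.77 ± 0.196 FPKM in the sham LV against 3.08 ± 0.373 FPKM with VO, and 3.89 ± 0.25 FPKM in the sham RV against 2.99 ± 0.497 FPKM with VO (SD, n = 3). The log2 differences of Dsc2 were −0.42 between the sham ventricles (limma adjusted p = 0.0888), 0.13 for the LV response, −0.34 for the RV response and 0.04 between the overloaded ventricles. The difference of its responses was 0.46 (standard error 0.19, limma adjusted p = 0.162).

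In the adherens junction, N-cadherin had a large difference of responses. Cdh2 (ENSRNOG00000015602, chr18:8146971-8360684, minus strand) measured 69.2, 49.6 and 71.1 FPKM in the sham-operated LV (replicates 1 to 3), against 94.0, 90.8 and 116 FPKM in the overloaded LV. For the RV the values were 106, 105 and 83.5 FPKM without and 88.1, 80.9 and 64.0 FPKM with VO. Sham LV lay entirely below both sham RV and VO LV, and the libraries of the RV groups overlapped. Mean levels were 63.3 ± 11.9 (sham) and 100.2 ± 13.6 FPKM (VO) for the LV, and 98.3 ± 12.8 (sham) and 77.7 ± 12.4 FPKM (VO) for the RV (SD, n = 3). The sham difference (log2 difference −0.64, standard error 0.17, limma adjusted p = 0.0559), the LV response (0.67, limma adjusted p = 0.0698), the RV response (−0.34) and the difference between the overloaded ventricles (0.37) did not pass. The responses of Cdh2 differed significantly (log2 difference 1.01, standard error 0.24, limma adjusted p = 0.0435).

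The most abundant transcript, Ctnna1, had small log2 differences with the smallest standard errors of the 11 rows. Ctnna1 (ENSRNOG00000005796, chr18:27923572-28055960, plus strand) gave 162, 174 and 169 FPKM in the 3 sham LV libraries and 189.7, 195 and 219 FPKM in the 3 VO LV libraries. Sham RV gave 205, 207 and 196 FPKM, and VO RV 180.3, 178 and 161 FPKM. No library of sham LV reached any of sham RV or VO LV, and no library of VO RV reached any of sham RV or VO LV. The mean was 168 ± 5.99 FPKM in the sham LV against 201 ± 16.0 FPKM with VO, and 202 ± 6.08 FPKM in the sham RV against 173 ± 10.3 FPKM with VO (SD, n = 3). Its log2 differences were −0.27 between the sham ventricles (limma adjusted p = 0.0819), 0.26 for the LV response (0.108), −0.22 for the RV response (0.56) and 0.21 between the overloaded ventricles (0.378), each of which also lay under the fold change of 1.3. Its responses differed significantly (log2 difference 0.48, standard error 0.12, limma adjusted p = 0.0474).

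Ctnna3 is split over neighbouring rows of 1770 and 1577 bases (ENSRNOG00000000373, chr20:25064702-25826658, and ENSRNOG00000000378, chr20:26516836-26589209, both on the minus strand), so that neither row need hold the whole gene. The 1770-base row stood at 1.40, 1.11 and 1.55 FPKM in sham LV replicates 1 to 3 and at 2.97, 3.57 and 6.09 FPKM in the overloaded LV. The RV had 8.52, 3.78 and 2.59 FPKM after the sham operation and 2.09, 2.96 and 1.82 FPKM after VO. Sham RV replicate 1 was more than 2 times as high as either other sham RV library. The 1577-base row was 1.53, 1.06 and 1.65 FPKM in replicates 1 to 3 of sham LV and stood at 2.31, 2.56 and 3.42 FPKM with VO. In the RV it was 4.65, 2.37 and 2.48 FPKM in the sham libraries and 2.34, 2.16 and 1.04 FPKM in the VO libraries. Sham RV replicate 1 was again the highest library. On both rows sham LV lay entirely below both sham RV and VO LV. Between the shams, the 1770-base row was significantly lower in the LV (log2 difference −1.42, standard error 0.35, limma adjusted p = 0.0498), and without sham RV replicate 1 the log2 difference was −0.98 with a limma adjusted p of 0.154. The 1577-base row was not called there (log2 difference −0.90, standard error 0.28, limma adjusted p = 0.0833). The LV responses were 1.299 and 0.77 and the RV responses −0.84 and −0.64 on the log2 scale for the longer and the shorter row, and neither passed. The difference of the responses passed for the longer row (log2 difference 2.14, standard error 0.50, limma adjusted p = 0.0422) and not for the shorter (log2 difference 1.41, standard error 0.40, limma adjusted p = 0.0654). The 2 rows rested on 27 to 249 reads per library.

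Connexin 43 had a large difference of responses and a wide spread in sham LV and VO RV. Gja1 (ENSRNOG00000000805, chr20:37876650-37889089, plus strand) measured 124, 79.6 and 143 FPKM in the sham-operated LV (replicates 1 to 3), against 191, 197 and 227 FPKM in the overloaded LV. For the RV the values were 209.6, 198 and 168 FPKM without and 180.0, 151 and 112 FPKM with VO. Sham LV lay entirely below both sham RV and VO LV, with sham LV replicate 2 far below the other 2, and the RV groups overlapped. Mean levels were 116 ± 32.6 (sham) and 205 ± 19.4 FPKM (VO) for the LV, and 192 ± 21.6 (sham) and 148 ± 34.3 FPKM (VO) for the RV (SD, n = 3). The sham difference (log2 difference −0.76, standard error 0.22, limma adjusted p = 0.0658) and the LV response (log2 difference 0.86, standard error 0.22, limma adjusted p = 0.0673) did not pass, nor did the RV response (−0.40) or VO LV against VO RV (0.49). The responses of Gja1 differed significantly (log2 difference 1.26, standard error 0.30, limma adjusted p = 0.0456). Without sham LV replicate 2, the LV response of Gja1 was 0.62 on the log2 scale, the lowest value over all alternatives run.

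Its partner ZO-1 varied little. Tjp1 (ENSRNOG00000011077, chr1:126146489-126227469, minus strand) gave 30.8, 25.7 and 33.8 FPKM in the 3 sham LV libraries and 32.3, 31.2 and 33.2 FPKM in the 3 VO LV libraries. Sham RV gave 33.6, 32.6 and 26.8 FPKM, and VO RV 26.2, 28.6 and 25.9 FPKM. The groups overlapped, except that all VO LV libraries were above all VO RV libraries. The mean was 30.1 ± 4.10 FPKM in the sham LV against 32.3 ± 1.03 FPKM with VO, and 31.0 ± 3.66 FPKM in the sham RV against 26.9 ± 1.48 FPKM with VO (SD, n = 3). The log2 differences of Tjp1 were −0.05 between the sham ventricles, 0.11 for the LV response, −0.19 for the RV response and 0.26 between the overloaded ventricles, and the difference of the responses was 0.30 (standard error 0.16, limma adjusted p = 0.259). Whether the response of Tjp1 differed from that of Gja1 was not tested.

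**Figure D3:**
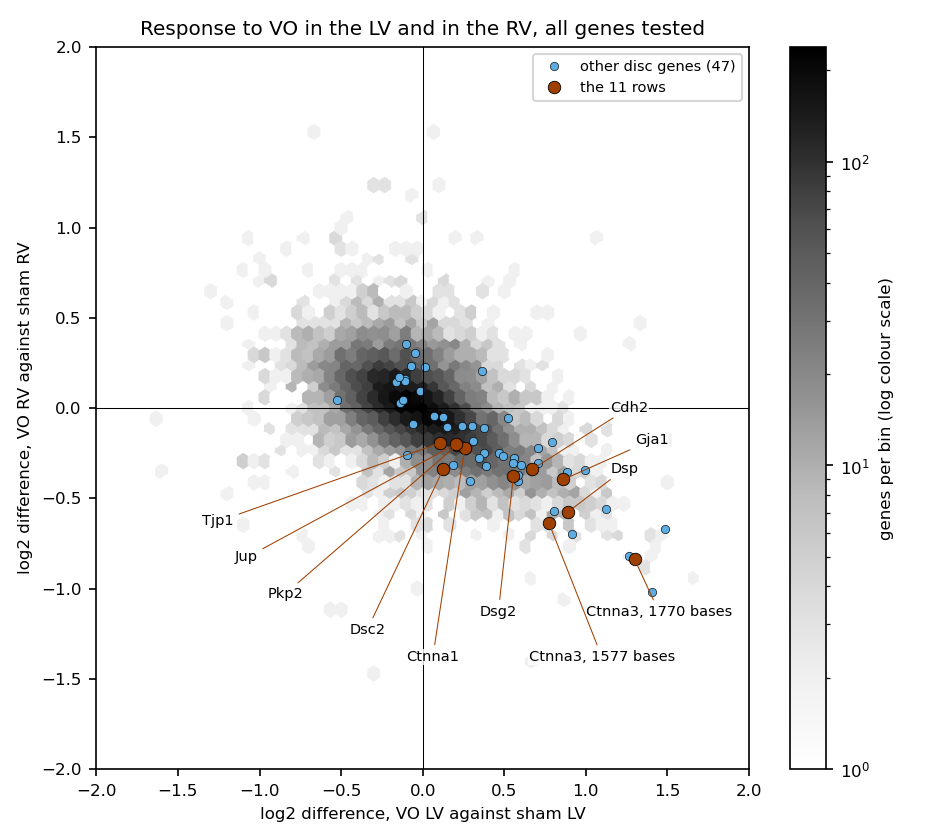
The LV response (x axis, log2) against the RV response (y axis, log2) for all genes tested, as grey bins whose shade is the number of genes on a log scale, with the 47 other disc genes in blue and the 11 rows in brown. All 11 rows lie to the lower right, with an LV response above 0 and an RV response below 0, and 43 genes lie outside the axes.

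Ratios taken within a library do not depend on how the library was scaled. Ctnna3, summed over its rows, was 0.0165 ± 0.00350 of Ctnna1 in the sham LV and 0.0342 ± 0.00808 with VO, and 0.0400 ± 0.0212 in the sham RV and 0.0237 ± 0.00556 with VO (SD, n = 3). Pkp2 over Dsp was 0.805 ± 0.119, 0.502 ± 0.0826, 0.459 ± 0.0805 and 0.602 ± 0.160 in the same order, so that Pkp2 was closest in level to Dsp in sham LV. Dsc2 over Dsg2 was 0.261 ± 0.0257, 0.193 ± 0.0141, 0.217 ± 0.0177 and 0.216 ± 0.00163. Jup over β-catenin (Ctnnb1), its close relative in the adherens junction, lay between 0.518 and 0.580 in the group means, and Gja1 over Cdh2 between 1.81 and 2.05. In 20 exact two-sided permutation tests of these ratios the smallest p was 0.1, which is the smallest that 3 libraries against 3 can give, and the smallest after adjustment was 0.333, so that none passed. It was reached by Ctnna3 over Ctnna1 and Pkp2 over Dsp between the sham ventricles and in the LV response, and by Dsc2 over Dsg2 in the LV response and between the overloaded ventricles.

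A list of 50 other genes, fixed with earlier results of these data known, gave 47 tested genes. They are called other disc genes here. However, 6 of the 47, Ryr2 and Rbm20 among them, were listed for arrhythmogenic cardiomyopathy and not for the disc. Cdh5 was also an endothelial marker. In sham LV against sham RV, 11 were called, 10 of them lower in the LV (beside 2.35% of all tested genes called lower), and the median log2 difference was −0.33. The 5 with the smallest adjusted p were Kcnj2, the Kir2.1 channel of the resting potential (log2 difference −1.66, standard error 0.24, limma adjusted p = 0.0319), the actin-binding Xirp1 (−0.95), Popdc2, a cAMP-binding membrane protein (−0.82), the calcium release channel Ryr2 (−0.94) and Gja4, a connexin of vascular endothelium and the only one called higher (0.61). Kcnj2 went from 2.17 ± 0.347 FPKM (sham) to 6.69 ± 1.92 FPKM (VO) in the LV and from 7.94 ± 1.28 to 3.78 ± 1.43 FPKM in the RV (SD, n = 3). The number called was 0 without sham LV replicate 1 or 2, sham RV replicate 1 or 2, or VO LV replicate 2. It was 4 without sham RV replicate 3, 5 without VO LV replicate 1 and 7 without sham LV replicate 3, where 185, 173 and 420 of all tested genes were called.

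None of the 47 genes was called in either response or between the overloaded ventricles by limma, beside the same shares of all genes as above. At the unadjusted p, 20 were higher and 1 lower in the LV response (beside 9.27% of all genes higher), 6 were lower in the RV response (beside 3.06%), and 11 were higher and 2 lower in VO LV against VO RV (beside 3.85% higher). By voom on the recovered reads, 13 were called in the LV response, beside 2.44% of all genes, and none in the others. Without VO RV replicate 3, VO RV replicate 1 or sham LV replicate 3, limma called 15, 8 and 6 in the LV response, beside 554, 174 and 295 of all tested genes, and without VO RV replicate 1 it called 2 between the overloaded ventricles, beside 48 of all genes. Their median log2 differences were 0.35, −0.20 and 0.21. The smallest p-values of the LV response were those of the actin regulator Enah (0.80), Kcnj2 (1.41) and filamin C (Flnc, 1.00), each with a limma adjusted p of 0.0514. In the RV response they were those of Kcnj2 (−1.02), Ryr2 (−0.70) and Lmo7 (−0.28), with limma adjusted p of 0.528 to 0.542. Between the overloaded ventricles they were those of Cdh11, a cadherin of mesenchymal cells (−0.90), Nrap (0.53) and Lmo7 (0.33), with limma adjusted p of 0.217 to 0.257.

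In the difference of the responses, 15 of the 47 genes were called, all with the higher response in the LV (beside 3.46% of all tested genes), and the median was 0.50 on the log2 scale. By role they were 4 of 16 adherens junction genes (Lmo7, Nrap, Enah and Tln2), 6 of 14 scaffold and anchoring genes (Ank2, Ank3, Flnc, Pgm5, Synpo2 and Xirp1), 3 of 6 channels and receptors (Cxadr, Kcnj2 and Popdc2) and 2 of 6 other arrhythmogenic cardiomyopathy genes (Rbm20 and Ryr2). None of the 3 other connexins and neither of the 2 other desmosomal genes, Perp and Pkp4, was called. The connexins Gja4, Gja5 and Gjc1 had differences of −0.57, −0.27 and −0.32, below 0 where that of Gja1 was above 0. The smallest adjusted p-values were those of Kcnj2 (log2 difference 2.43, standard error 0.35, limma adjusted p = 0.0249), Ryr2 (log2 difference 1.61, standard error 0.27, limma adjusted p = 0.0249), the splicing regulator Rbm20 (0.84), Enah (0.99) and Nrap (0.86). The number called was 0 without sham LV replicate 1 or 2, sham RV replicate 1 or 2, or VO LV replicate 2 or 3, and it was 4 when VO RV replicate 3 was left out, with the same counts over all genes as given above.

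**Figure D4:**
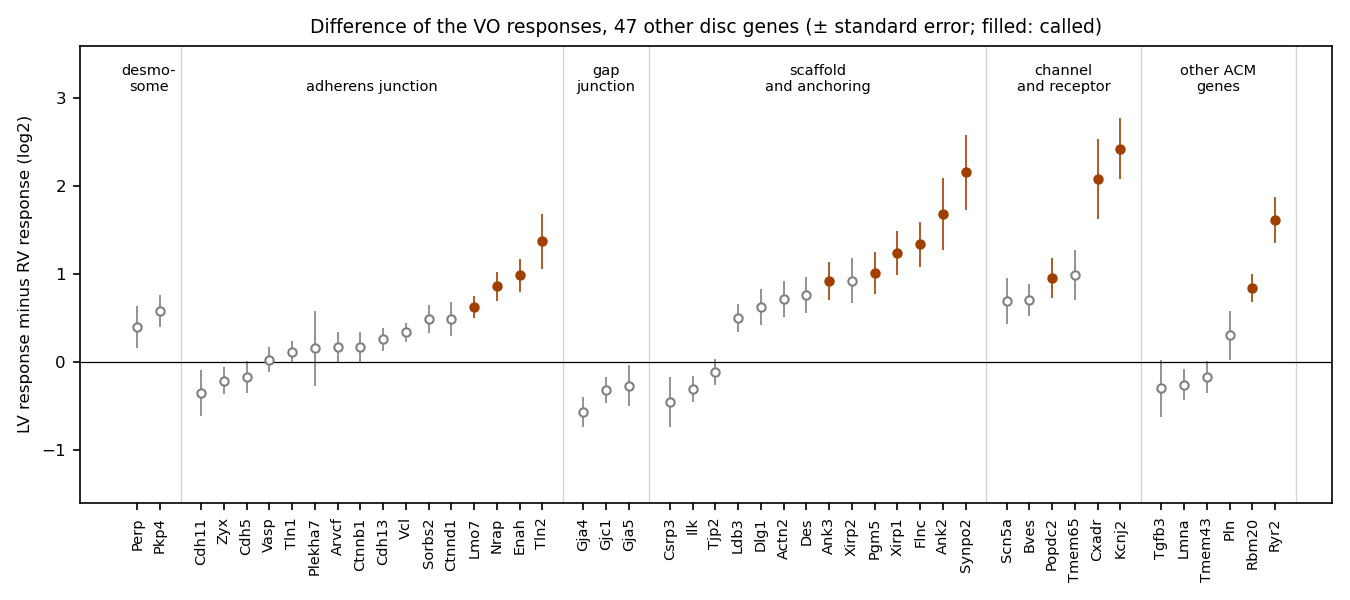
The difference of the responses (log2, LV minus RV, with standard errors) of the 47 other disc genes, grouped by role and ordered within a role, where filled points were called and ACM stands for arrhythmogenic cardiomyopathy. The 15 filled points all lie above 0, and the 3 connexins lie below 0.

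How closely each row followed the others was described by a correlation. Over the 12 libraries, which include the 4 groups and so share the differences between them, Pearson's r of a row's log2 values with the mean z-score of the other members was 0.972 for Cdh2, 0.971 for Dsp, 0.952 for Gja1, 0.919 for Dsg2, 0.903 and 0.850 for the Ctnna3 rows, 0.850 for Ctnna1, 0.734 for Dsc2, 0.659 for Jup, 0.610 for Tjp1 and 0.427 for Pkp2. Among 8623 genes outside the list with a mean of at least 5 FPKM, the 4 named genes most like the mean z-score of the members were Efr3a (r = 0.980), Dnaja3 (0.976), Iqsec1 (0.974) and Mef2d (0.970), and a row whose name reads as a spreadsheet date (ENSRNOG00000017396) was above them at 0.983. Such a likeness was common, with 350 genes above an r of 0.9 and 1015 above 0.8.

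The libraries also differed in depth, mitochondrial reads, Y-linked expression and atrial markers. Reads on genes ran from 14121713 to 16871371. The share of reads on mitochondrial genes was 14.4% in sham LV replicate 2, which was lowest in 6 of the 11 rows, 23.8% and 26.2% in the other sham LV libraries and 16.0% to 23.8% elsewhere. Y-linked genes summed to over 10 FPKM in 2 of 3 sham LV, 2 of 3 sham RV, 0 of 3 VO LV and 1 of 3 VO RV libraries, so that libraries with Y-linked expression were not balanced between the groups. VO RV replicate 3, the only VO library above 10 FPKM, was lowest in 3 rows. With this as a covariate, 2 rows were called between the sham ventricles and 1, Dsp, in the difference of the responses (1.42, limma adjusted p = 0.0442), beside 441 and 138 of all tested genes. The rows no longer called in the difference stood at 0.92 (Dsg2), 0.97 (Cdh2), 0.47 (Ctnna1), 1.17 (Gja1) and 2.18 (1770-base row of Ctnna3). The LV response was 0.79 for Dsp and 0.68 for Gja1, with limma adjusted p of 0.282 and 0.331, beside 0 of all genes called. Atrial markers (Myl7, Sln, Bmp10 and Myl4, 4 of 4 found) summed to 1522 FPKM in VO RV replicate 2 and 440.1 FPKM in sham RV replicate 1, against 148 to 306 FPKM in the others. Without these 2 libraries no row was called in any comparison. Of all tested genes, 7 were called there between the sham ventricles and 2 in each of the other comparisons. The difference of the responses was then 1.39 for Dsp and 0.95 for Dsg2, with limma adjusted p of 0.0706 and 0.0829. Beyond these fits, the part of Y-linked expression and of atrial markers in the results was not tested.

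The 8 markers of ventricular cardiomyocytes were all present and summed to 25951 to 27138 FPKM in the sham LV and 26426 to 29062 FPKM with VO, and to 22126 to 25816 FPKM in the sham RV and 18247 to 26259 FPKM with VO. Their median log2 difference was 0.05 between the sham ventricles, 0.24 for the LV response and −0.06 for the RV response, and none of the 8 was called in these comparisons, while 2, Myh6 and Myh7, were called in the difference of the responses (0.89 and 1.18, limma adjusted p = 0.0319 and 0.0249). Of the other 6 there, Actc1, Mybpc3 and Myl2 had differences of 0.48, 0.28 and 0.20, and Tnni3, Tnnt2 and Myl3 of −0.51, −0.24 and −0.05, with a median of 0.24 over the 8. Between the overloaded ventricles, where all 11 rows had the higher mean in VO LV (median 0.29), 8 of 8 ventricular markers were also higher there (median log2 difference 0.30), while 6 of 6 macrophage, 6 of 6 mesothelial and 6 of 7 fibroblast markers were lower (medians −0.42, −1.45 and −0.53), and none of these was called. Endothelial markers were higher in sham LV than in sham RV in 5 of 5, of which 3 were called, and summed to 348 to 375 FPKM against 256 to 279 FPKM. With VO they summed to 294 to 323 FPKM in the LV and 253 to 312 FPKM in the RV. Fibroblast markers summed to 2319.9 to 2558 FPKM in the sham LV and 1895 to 2292 FPKM with VO, and to 2497 to 3269 FPKM in the sham RV and 2245 to 4321 FPKM with VO, and none of the 7 was called. In 5 of 6 mesothelial markers sham LV was below sham RV, none of them called, while the sixth, Wt1, was called higher, and the 6 summed to 14.2 to 28.2 FPKM in the LV groups and 24.0 to 55.8 FPKM in the RV groups. The 5 mural markers were higher in sham LV in 5 of 5, with none called. The 6 macrophage markers summed to 38.2 to 42.1 FPKM in the sham LV and 34.4 to 37.4 FPKM with VO. In the RV they summed to 32.0 to 38.5 FPKM in the sham and 38.2 to 62.1 FPKM with VO. Of these markers, 5 were higher and 1 lower in the RV response (median log2 difference 0.37, none called). Between the sham ventricles, 7 of 7 fibroblast markers were lower in the LV (median −0.20). In the difference of the responses, where all 11 rows were above 0, the values were below 0 for 6 of 6 macrophage, 6 of 6 mesothelial, 5 of 5 endothelial and 6 of 7 fibroblast markers, with medians of −0.54, −0.58, −0.28 and −0.34 on the log2 scale. Of these only the macrophage marker C1qb was called (−0.92, limma adjusted p = 0.0440). Erythroid genes (3 of 4 found) summed to 2113 to 4782 FPKM in sham LV and 1131 to 2236 FPKM in sham RV, with a higher mean in sham LV in 3 of 3 (median log2 difference 0.68, none called). With VO they summed to 1658 to 2405 FPKM in the LV and 1098 to 2447 FPKM in the RV. Markers of squamous epithelium, whose cells are rich in desmosomes, summed to 3.07 to 6.55 FPKM and those of fat to at most 4.94 FPKM, and markers of skeletal muscle were under 0.5 FPKM. The part of cell composition in the results was not tested.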

How the data were processed

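Total RNA of LV- and RV-free walls was enriched for mRNA by poly-T beads, and libraries were made with the NEBNext Ultra kit. After quality filtering, the authors aligned reads with Hisat2 (2.0.5), counted them per gene with featureCounts (1.5.0-p3) and deposited FPKM. DESeq2, the authors' test, was not run here. The genome build, annotation and strand setting are not given in the sources used here. No column of values was left unmapped.

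Values were rescaled by median-ratio size factors of 0.996 to 1.00 and analysed as log2(FPKM + 0.5), so that folds of low genes are understated. The 13910 genes with a mean of at least 0.5 FPKM were fitted in R 4.3.3 with limma 3.58.1 (trend) as 1 model of the 4 groups and 12 libraries. A call needed a Benjamini-Hochberg adjusted p under 0.05 over all tested genes and a fold change over 1.3. Multiplied by gene length, FPKM gave whole reads for 100% of values below 200 reads (tolerance 0.02), which gave the depth and the voom fit. On those whole reads voom called 684 genes between the sham ventricles, 339 in the LV response, 0 in the RV response, 1 between the overloaded ventricles and 804 in the difference of the responses. Counting errors cover counting only. Ratios were compared by exact two-sided permutation tests (Python 3.11.15, scipy 1.17.1). The limma fit was also run on simulated independent values with changes planted in VO LV alone. It was scored in the LV response only, so it does not check the other comparisons or the effect of shared rats.

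The 10 genes and all lists were chosen with earlier results of these data known. Of the other disc genes, up to 5 called genes with the smallest adjusted p were named in each comparison, or the 3 with the smallest p where none was called, and the genes of the ratios and the 5 genes most like the members. Genes listed by role in the difference of the responses, the other connexins and desmosomal genes, the ventricular markers, C1qb and Wt1 were named after their values were seen. Marker lists covered ventricular and atrial cardiomyocytes, fibroblasts, endothelial and mural cells, macrophages, mesothelium, squamous epithelium, erythroid cells, fat, skeletal muscle and Y-linked genes. Alternatives were other scalings, pseudocounts and filters, separate fits, blocks, other variance models, a removed gene-length trend, voom and each library left out. A covariate for Y-linked expression and a fit without the RV libraries highest in atrial markers were added after the data were seen.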

Additional observations from a re-analysis of the deposited data

Results flagged for a closer look

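The difference of the responses to VO between the LV and the RV passed the test in limma for 6 of the 11 rows, with log2 values (LV response minus RV response) of 1.47 for Dsp, 0.93 for Dsg2, 1.01 for Cdh2, 0.48 for Ctnna1, 1.26 for Gja1 and 2.14 for the 1770-base row of Ctnna3. For the 1577-base row of Ctnna3 the difference was 1.41, which did not pass (adjusted p of 0.0654 from limma), and it was picked out only because every VO LV library lay above every sham LV library and every VO RV library below every sham RV library.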

How the results depend on the processing

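Of 1463 recomputed log2 differences of the 11 rows under 27 alternatives, 8 changed sign, all of them smaller than their standard error (Jup and Tjp1 between the sham ventricles, Dsc2 between the overloaded ventricles), 116 lost a call and 24 gained one. The number of rows called was 3, 0, 0, 0 and 6 for the sham ventricles, the LV response, the RV response, the overloaded ventricles and the difference of the responses, and of other disc genes 11, 0, 0, 0 and 15. With all genes above 0 tested, they were 0 and 0 for the sham ventricles and 0 and 1 for the difference (rows first, then other disc genes), where 8 and 21 of all genes were called against 536 and 583. Array weights gave 6 and 17 for the sham ventricles and 4 and 17 for the LV response, while the calls over all genes rose to 1321 and 704 (from 536 and 13). In the LV response, 1 and 8 were called with a mean of at least 1 FPKM, 1 and 4 in the separate fit, 2 and 13 by voom, and 3 other disc genes with a pseudocount of 0.1, beside 183, 120, 339 and 56 of all genes. Removing the gene-length trend left 3 rows in the difference, beside 393 of all genes. At the unadjusted p, in either direction, 7 and 22, 6 and 21, 3 and 6, 2 and 13, and 9 and 27 passed. The shares of all tested genes were 17.8%, 15.7%, 4.91%, 7.4% and 23.1% in the same order. With the Y-linked covariate, 1 and 4 were called in the difference, beside 138 of all genes. Without the RV libraries highest in atrial markers, 0 and 0 were called for the sham ventricles and for the difference, beside 7 and 2 of all genes.

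With single libraries left out, the rows called ranged from 0 to 6 for the sham ventricles, 0 to 4 for the LV response and 0 to 7 for the difference, and were 0 in every such fit for the RV response and the overloaded ventricles. For the other disc genes the ranges were 0 to 14, 0 to 15 and 0 to 21, 0 for the RV response and 0 to 2 for the overloaded ventricles, the 2 in a fit that called 48 of all genes against 1. Over all tested genes the same fits called 0 to 872 for the sham ventricles, 0 to 554 for the LV response and 0 to 1004 for the difference. Deviations of LV and RV libraries with the same treatment and number had correlations of −0.218 to 0.123, so by the limit of 0.1 for every pair the numbers were not taken to pair them, although Y-linked expression was on the same side of 10 FPKM in 5 of 6 such pairs. The exception was VO number 3, with 0.296 FPKM in the LV and 56.1 FPKM in the RV, so that these libraries are not from 1 rat if both labels are right. With so few pairs, the correlations cannot exclude that the LV and RV of any other number come from 1 rat. With the replicate number as a block, 0 rows and 0 other disc genes were called in the sham ventricles and the difference, beside 3 and 1 of all genes. With each LV and RV pair as a block, VO number 3 included, 0 were called, beside 0 and 0 of all genes. The cause of these changes was not tested. The reads on Ctnna3 (27 to 249 per library and row) limit its values.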
